A study of Mus musculus with 10 samples.

Results

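The genes described here are 7 non-globin genes of the red cell lineage, Alas2, Slc4a1, Rhag, Epb42, Ahsp, Klf1 and Gata1, taken by symbol from a table of 53465 genes. Of the 7, 6 were matched to a row through their Ensembl identifier, and 5 had enough counts to be tested among the 16426 genes of the fit. Ahsp, a chaperone of free alpha globin, was not matched and was not analysed here. Rhag was matched but was too low to be tested in the fit.

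The samples were whole pinna prominences, the tissue that forms the outer ear, micro-dissected from mouse embryos at E14.5 and measured by bulk RNA-seq of poly-A RNA. There were 5 wild type libraries (WT) and 5 libraries (KI) from mEC1dup/dup embryos, in which a further copy of the enhancer mEC1, an element near the transcription factor gene Hmx1, had been placed on each allele by CRISPR/Cas9. Edited founders were crossed to wild type mice and heterozygotes were intercrossed. The study's reporting form counts 5 embryos per genotype, which gives 1 embryo for each library. The comparison of KI with WT asks how the added enhancer copy altered gene expression in the pinna, and it is read here for the red cell genes.

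Red cells are made outside the pinna and reach it through its vessels. In the embryo a first, primitive wave of red cells from the yolk sac carries embryonic globins, and a later, definitive wave from the fetal liver carries adult-type globins. Both waves lean on the factors GATA1 and KLF1, on heme made through ALAS2, and on a membrane anchored by band 3 (Slc4a1) and protein 4.2 (Epb42). In such bulk tissue, fewer red cells and less RNA per red cell cannot be told apart.

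GATA1 binds a short GATA core, and KLF1 binds CACCC boxes, so the promoters of the members were searched for both. RefSeq promoters, from 250 bases before to 50 bases after the start, were at hand for 5 members, in a table of build GRCm38.p6, and each had 1 exact match in GRCm39, which gives the coordinates. The motifs were AGATAA or TGATAA for a GATA site, CACCC, CCNCNCCC for a KLF1 site and CANCTG for an E-box, each on both strands, with CACCC and CCNCNCCC able to overlap. The 3 promoters that held both a GATA site and CACCC are shown because they carry the letters of both factors. Capitals mark the GATA sites and the CACCC boxes, on either strand, and each sequence runs 5′ to 3′ along its gene.
Alas2, chrX:149330163-149330462 (+ strand): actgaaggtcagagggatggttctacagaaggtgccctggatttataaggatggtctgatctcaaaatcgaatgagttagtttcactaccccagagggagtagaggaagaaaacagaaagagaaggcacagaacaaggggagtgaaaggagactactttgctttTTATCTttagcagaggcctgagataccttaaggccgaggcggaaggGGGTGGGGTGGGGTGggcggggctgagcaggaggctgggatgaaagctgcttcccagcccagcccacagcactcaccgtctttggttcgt
Rhag, chr17:41121790-41122089 (+ strand): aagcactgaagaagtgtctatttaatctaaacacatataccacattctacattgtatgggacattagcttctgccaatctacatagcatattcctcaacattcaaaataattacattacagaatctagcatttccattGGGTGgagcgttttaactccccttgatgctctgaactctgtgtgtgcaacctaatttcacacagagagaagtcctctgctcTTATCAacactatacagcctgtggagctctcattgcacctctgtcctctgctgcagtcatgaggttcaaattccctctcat
Klf1, chr8:85628361-85628660 (+ strand): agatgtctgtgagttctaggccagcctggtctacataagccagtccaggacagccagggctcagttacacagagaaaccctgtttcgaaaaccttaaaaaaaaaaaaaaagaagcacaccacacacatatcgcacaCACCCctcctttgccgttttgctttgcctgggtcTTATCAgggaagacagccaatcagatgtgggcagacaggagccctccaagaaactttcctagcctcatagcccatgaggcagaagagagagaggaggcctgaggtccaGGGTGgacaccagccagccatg

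A GATA site was found in 4 of the 5 member promoters (Alas2, Rhag, Epb42 and Klf1), against 18.6% of all 32851 promoters of the same length. A GATA site with CACCC was found in 3 of the 5, against 8.96% of all promoters. The GATA site of Alas2 began 86 bases before the RefSeq start, that of Klf1 80 bases and that of Rhag 31 bases before it. In Epb42 the site began 226 bases before the RefSeq start, which lies 195 bases downstream of the start in GENCODE, so that it began 31 bases before the GENCODE start. Counted from the GENCODE start, the sites of Alas2, Klf1 and Rhag began 44, 26 and 8 bases before it. The promoter of Gata1 (chrX:7834100-7834399, minus strand) held no GATA site of these spellings and held CACCC, which occurred in 4 of the 5 member promoters and in 57.5% of all. CCNCNCCC was in 2 of the 5 against 49.5% of all, and CANCTG in 2 of the 5 against 51.4%. A match is a description of letters and not a bound site.

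The libraries held 17461544 to 18462073 counts. The labels were checked on Hmx1, which stood at 26.6 ± 3.0 CPM in WT and 66.2 ± 9.11 CPM in KI (mean ± SD, n = 5 each; CPM stands for counts divided by the TMM-scaled library size), with every KI library above every WT library. The markers of pinna mesenchyme Twist1 and Prrx1 were present in every group, at 267 and 628 CPM in WT. Xist, which is transcribed from an inactive X chromosome, gave 2 to 5 counts in the WT libraries and 12812 to 19040 counts in KI 1 to KI 3. KI 4 lay between these at 2096 counts, and KI 5 had 0 counts. WT and KI 1 to KI 4 thus differed in Xist as well as in genotype. Between those libraries Xist and genotype cannot be told apart for any gene, including Alas2 and Gata1, which lie on the X chromosome. KI 5 alone joined the KI genotype to a WT-like Xist level, with 976 Hmx1 counts against 376 to 526 in WT. Of all tested genes, 1.81% were called lower in KI and 0.834% higher (a call needed an edgeR adjusted p no higher than 0.05 and a mean log2 CPM of 1 or more).

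No member was called in either direction, and the background was 2.64% of tested genes called in either direction. In the same edgeR fit 0 of the 5 tested members had an unadjusted p under 0.05, where 16.2% of all tested genes did. DESeq2 and limma-voom also called 0 members. Only Alas2 and Slc4a1 reached the average log2 CPM of 1 that a call needed, and Epb42, Klf1 and Gata1 lay below it. The WT and KI libraries overlapped in CPM for all 6 measured members, whereas 5.07% of tested genes had groups that did not overlap. The median log2 fold change of the 5 tested members was 0.05, against -0.0042 over all tested genes. Alas2 and Slc4a1 held 90.7% to 94.5% of the members' counts in each library.

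**Figure D1:**
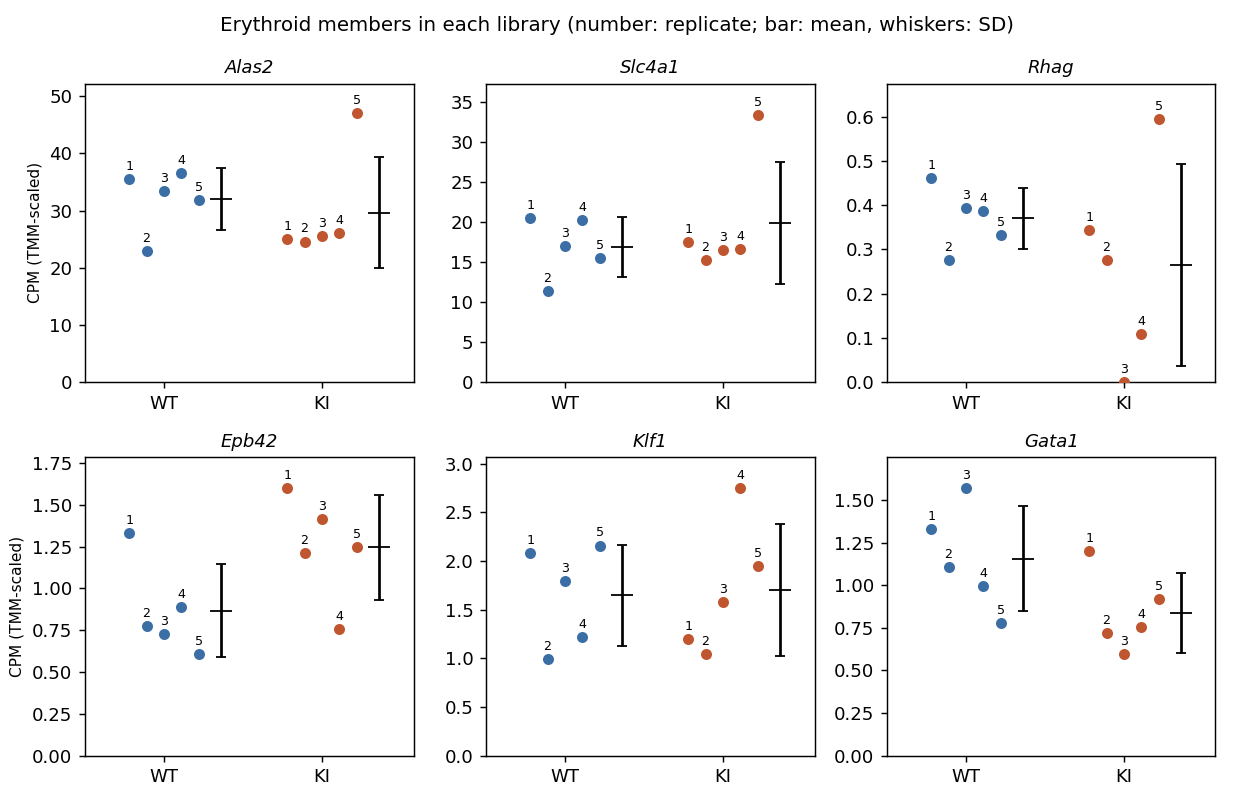
Level of the 6 measured members in CPM (vertical axis, each panel with its own scale from 0) in each WT (blue) and KI (orange) library, numbered by replicate, with the mean and SD of each group in black. KI 5 is the highest library for Alas2 at 47.0 CPM and for Slc4a1 at 33.4 CPM, while KI 1 to KI 4 lie within 24.6 to 26.1 CPM and 15.2 to 17.5 CPM.

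Alas2 encodes the erythroid form of 5-aminolevulinate synthase, the first and rate-limiting enzyme of heme synthesis, and lies on the X chromosome (ENSMUSG00000025270; GRCm39 chrX:149330371-149353634, plus strand, 13 merged exons). Its counts in WT 1 to WT 5 were 616, 414, 594, 660 and 575, or 35.6, 22.9, 33.3, 36.6 and 31.9 CPM. In KI 1 to KI 5 its counts were 439, 446, 469, 483 and 868, or 25.1, 24.6, 25.5, 26.1 and 47.0 CPM. The 4 KI libraries other than KI 5 lay close together and below 4 of the 5 WT libraries, KI 5 was the highest of all 10, and WT 2 was the lowest. The group means were 32.1 ± 5.43 CPM in WT and 29.6 ± 9.72 CPM in KI (SD, n = 5 each), and the log2 fold change was -0.11 ± 0.18 (SE; 95% interval -0.50 to 0.28; adjusted p = 0.818, edgeR quasi-likelihood test with Benjamini-Hochberg adjustment). On the linear scale the interval ran from 0.707-fold to 1.21-fold. Without KI 5 the log2 fold change was -0.34 and was still not called (edgeR, adjusted p = 0.157). With Xist, on the log2 CPM scale, added to the model it turned to 0.45 (edgeR, adjusted p = 0.393), a fit in which KI 5 is the only KI library with WT-like Xist. Exons of Apex2 on the opposite strand cover 11.6% of its exon bases, and Apex2 was at 16.4 CPM in WT and 17.7 CPM in KI.

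The band 3 anion exchanger, encoded by Slc4a1, trades chloride for bicarbonate across the red cell membrane and anchors its skeleton (ENSMUSG00000006574; GRCm39 chr11:102239650-102257029, minus strand, 25 merged exons). In WT 1 to WT 5 it had 354, 205, 303, 365 and 280 counts, or 20.5, 11.4, 17, 20.2 and 15.5 CPM. In KI 1 to KI 5 it had 307, 276, 304, 307 and 617 counts, or 17.5, 15.2, 16.5, 16.6 and 33.4 CPM. KI 5 was again the highest library and WT 2 the lowest, and the other KI libraries lay inside the range of WT. The means were 16.9 ± 3.76 CPM in WT and 19.9 ± 7.63 CPM in KI (SD, n = 5 each), and the fold change on the log2 scale was 0.23 ± 0.22 (SE; 95% interval -0.24 to 0.70; adjusted p = 0.661, edgeR). Without KI 5 the log2 fold change was -0.04 (edgeR, adjusted p = 0.931), so the sign of this difference came from 1 library. With Xist in the model it was 0.86 (edgeR, adjusted p = 0.242), again a fit in which KI 5 is the only KI library with WT-like Xist.

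Rhag, the Rh-associated glycoprotein of the red cell membrane (ENSMUSG00000023926; GRCm39 chr17:41122017-41151645, plus strand), was the lowest member. It gave 8, 5, 7, 7 and 6 counts in WT 1 to WT 5, and 6, 5, 0, 2 and 11 counts in KI 1 to KI 5. KI 5 was the highest library here too, and KI 3 had no count, which at 3 counts allows up to 0.163 CPM (counting error only). The summed counts were 33 in WT and 24 in KI, a ratio of rates of 0.713 (95% interval 0.403 to 1.24, counting error only). The mean level was 0.370 ± 0.0697 CPM in WT and 0.264 ± 0.229 CPM in KI (SD, n = 5 each; two-sided exact permutation test over 252 arrangements, p = 0.341, where the smallest possible p was 0.0079). A difference within that interval was not detectable at this depth.

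Protein 4.2, encoded by Epb42, ties band 3 to ankyrin beneath the membrane (ENSMUSG00000023216; GRCm39 chr2:120848372-120867553, minus strand). Its counts were 23, 14, 13, 16 and 11 in WT 1 to WT 5 and 28, 22, 26, 14 and 23 in KI 1 to KI 5. In CPM, 2 KI libraries lay above the highest WT library, and the other 3, KI 2, KI 4 and KI 5, lay inside the WT range. The means were 0.866 ± 0.277 CPM in WT and 1.25 ± 0.314 CPM in KI (SD, n = 5 each). The log2 fold change was 0.52 ± 0.27 (SE; 95% interval -0.06 to 1.10; adjusted p = 0.373, edgeR), the largest in size of the 5 tested members, and stayed between 0.40 and 0.72 in all alternative fits.

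Klf1 encodes the erythroid Krüppel-like factor that drives adult beta globin and much of the late red cell programme (ENSMUSG00000054191; GRCm39 chr8:85628557-85631934, plus strand). It gave 36, 18, 32, 22 and 39 counts in WT 1 to WT 5 and 21, 19, 29, 51 and 36 counts in KI 1 to KI 5. The highest library was KI 4 and not KI 5. The groups overlapped, at 0.996 to 2.16 CPM in WT and 1.05 to 2.75 CPM in KI. The means were 1.65 ± 0.520 CPM in WT and 1.70 ± 0.682 CPM in KI (SD, n = 5 each), and the fold change on the log2 scale was 0.05 ± 0.30 (SE; 95% interval -0.59 to 0.69; adjusted p = 0.957, edgeR). Leaving out KI 4 gave -0.19 and leaving out KI 2 gave 0.18, so no direction could be read. In GENCODE, 52.7% of the exon bases of Klf1 also belong to exons of Gcdh on the opposite strand, neither library kit named in the sources marks strand, and Gcdh was at 30.7 CPM in WT and 32.9 CPM in KI (log2 fold change 0.10; edgeR, adjusted p = 0.429). The part of Gcdh reads in the Klf1 counts was not tested.

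Gata1 encodes the zinc finger factor that commits cells to the erythroid fate and is also used by megakaryocytes and mast cells (ENSMUSG00000031162; GRCm39 chrX:7825499-7844310, minus strand). It gave 23, 20, 28, 18 and 14 counts in WT 1 to WT 5 and 21, 13, 11, 14 and 17 counts in KI 1 to KI 5. In CPM, 3 KI libraries lay below the lowest WT library, while KI 1 lay above 3 of the WT libraries. The means were 1.16 ± 0.306 CPM in WT and 0.838 ± 0.233 CPM in KI (SD, n = 5 each), and the log2 fold change was -0.46 ± 0.26 (SE; 95% interval -1.03 to 0.11; adjusted p = 0.431, edgeR). The antisense gene Gm14820, which covers 13.3% of its exon bases, had 2 counts in all of WT and 1 in all of KI.

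The markers of the other cell types that use Gata1 are given beside it. Of 7 mast cell markers, 6 were tested and 3 were called lower in KI: Cpa3, the mast cell carboxypeptidase (log2 fold change -1.03), Cma1, a chymase (-1.41), and Tpsb2, a tryptase (-1.62). Over all tested genes, 1.81% were called lower. Summed over all 7 markers, the level ran from 69.8 to 104 CPM in WT and from 49.5 to 60.1 CPM in KI, with no overlap. The largest part of that sum was Kit, at 35.2 CPM in WT and 28.2 CPM in KI, which was not called and whose groups overlapped. No mast cell marker was at 0 in all libraries. Of 6 megakaryocyte and platelet markers, 4 were tested and only Itga2b, the platelet integrin alpha IIb, was called lower (-0.59; edgeR, adjusted p = 0.0416), with sums of 17.3 to 22.7 CPM in WT and 13.7 to 18.5 CPM in KI. Cpa3, Cma1 and Tpsb2 kept their calls in all 10 fits with 1 library left out and Itga2b in 2 of them (without WT 4 or WT 5), and all 4 calls were lost with Xist in the model (edgeR, adjusted p of 0.172 to 0.543). The Itga2b call was also lost with limma-voom, with a replicate block and with no filter on low counts. The part of these cells in the Gata1 value was not tested. Of the 8 macrophage and 6 endothelial markers none was called in the same fit. At an unadjusted p of 0.05 there was 1 lower in each list, where 1492 of all 16426 tested genes were lower.

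**Figure D2:**
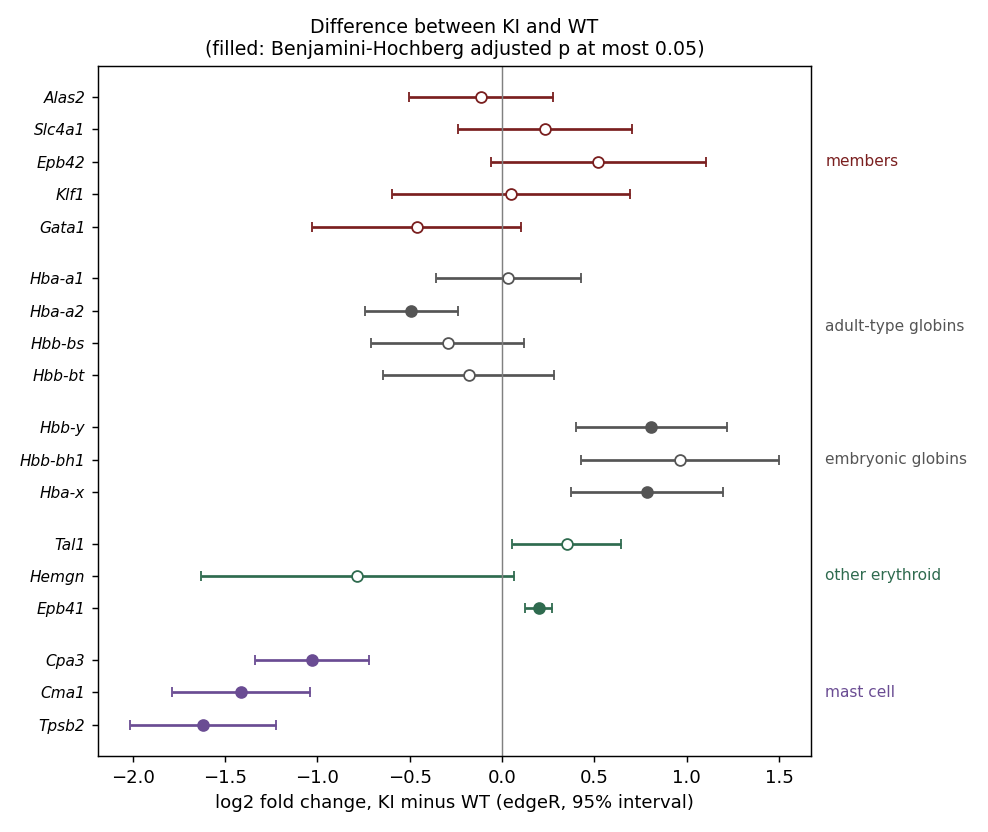
Log2 fold change of KI minus WT (horizontal axis) with its 95% interval from edgeR for the tested members, the globins, 3 other erythroid genes and 3 mast cell genes, with filled symbols for an adjusted p of at most 0.05. The intervals of the 5 members all include 0, while Hba-a2 lies at -0.49 and Hbb-y at 0.81.

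The spread among libraries of 1 group stood far above counting noise for Alas2 and Slc4a1, where high counts make it visible, and closer to it for the low members. The chi-square per degree of freedom within groups, which is near 1 for pure counting noise, was 37.5 for Alas2 and 34.4 for Slc4a1. It was 3.95 for Klf1, 1.96 for Rhag, 1.51 for Epb42 and 1.31 for Gata1, and this measure grows with the counts. As a share of the mean, the SD was 16.9% in WT and 32.8% in KI for Alas2, and 31.5% and 40.0% for Klf1. The KI value of Alas2 rested on KI 5, since KI 1 to KI 4 were at 25.3 ± 0.620 CPM (SD, n = 4). Per kilobase of merged exon, the level over the 10 libraries fell in the order Alas2 (11.5 ± 2.80 CPM per kb, SD), Slc4a1 (3.76 ± 1.20), Klf1 (1.09 ± 0.371), Gata1 (0.402 ± 0.123), Epb42 (0.195 ± 0.0634) and Rhag (0.136 ± 0.0724). Alas2 stood above Slc4a1, Slc4a1 above Klf1 and Klf1 above Gata1 in 10 of 10 libraries, with ranges that did not overlap. Gata1 was above Epb42 in 9 of 10 libraries and Epb42 above Rhag in 6 of 10, and the ranges of both pairs overlapped.

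The level of each member in KI 5 was set against KI 1 to KI 4. Alas2 was 1.85 times (95% interval 1.71 to 2.01) and Slc4a1 2.03 times (1.84 to 2.24) its pooled rate in KI 1 to KI 4. Rhag gave a ratio of 3.32 from 11 counts (1.35 to 8.03). The ratio was 1.00 for Epb42 (0.605 to 1.60), 1.18 for Klf1 (0.787 to 1.72) and 1.13 for Gata1 (0.618 to 1.96). These intervals cover counting error only, KI 5 was chosen after its values were seen, and Epb42 itself ran from 0.755 to 1.6 CPM in KI 1 to KI 4. The interval of Epb42 ended below those of Alas2 and Slc4a1 and that of Klf1 below that of Slc4a1, while the intervals of Klf1 and Gata1 reached that of Alas2. The differences between members in KI 5 were not tested against the spread between libraries. The summed adult-type globins Hba-a1, Hba-a2, Hbb-bs and Hbb-bt were 1.97 times and the embryonic globins Hbb-y, Hbb-bh1 and Hba-x 1.78 times their mean in the other KI libraries. In the same library the summed endothelial markers were at 1.10 times and the summed macrophage markers at 1.04 times that mean. The summed mast cell markers were at 1.15 times and the summed megakaryocyte and platelet markers at 1.16 times it.

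After each library's level was taken as its deviation from its group mean in log2 CPM, Alas2 and Slc4a1 moved together, with Pearson's r of 0.98 and Spearman's rho of 0.95 over 10 libraries, and r of 0.96 over the 9 libraries without KI 5. Alas2 followed the summed adult-type globins with r of 0.95 (0.83 without KI 5) and Slc4a1 with r of 0.91 (0.74 without KI 5). With the embryonic globins the values were 0.79 for Alas2 and 0.73 for Slc4a1, and 0.48 and 0.37 without KI 5. Klf1 (0.23), Gata1 (0.11) and Epb42 (0.07) showed little relation to the adult-type globins, at 11 to 51 counts per library. Rhag, at 0 to 11 counts, gave an r of 0.61, and of 0.17 without KI 5. All these points share the libraries and their scaling, and the values are given as a description.

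**Figure D3:**
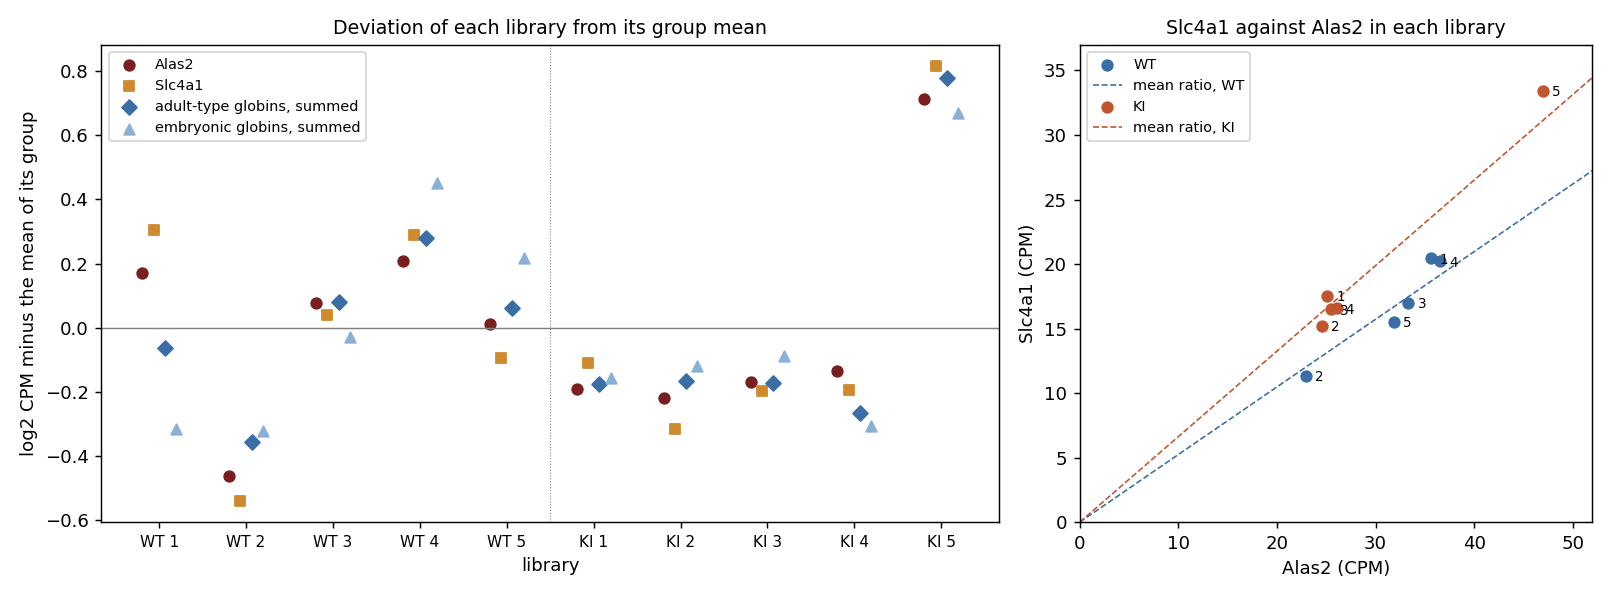
Left, deviation of log2 CPM from the group mean (vertical axis) in each library for Alas2, Slc4a1 and the 2 summed globin classes. Right, Slc4a1 against Alas2 in CPM for each library, with dashed lines at the mean ratio of counts, 0.524 in WT and 0.663 in KI. KI 5 stands highest in all series on the left, and on the right all KI libraries lie above the WT line, from 0.619 to 0.711.

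Neither gene was called on its own, but the ratio of Slc4a1 to Alas2 separated the groups. There were 57.5, 49.5, 51.0, 55.3 and 48.7 Slc4a1 counts per 100 Alas2 counts in WT 1 to WT 5, and 69.9, 61.9, 64.8, 63.6 and 71.1 in KI 1 to KI 5. Every KI library was above every WT library, and KI 5, which was far apart in both genes, was close to KI 1 in their ratio. On the log2 scale the difference was 0.34 with a pooled SD of 0.0960, and it stayed between 0.31 and 0.37 when any 1 library was left out. Of the 15 pairs of members this was the only 1 whose groups did not overlap, and the ranges of Gata1 to Epb42 met at a value of 1. Against each of the other 16425 tested genes, the ratio separated the groups for 1.3% of genes with Slc4a1 and 0.463% of genes with Alas2. Those genes were not limited to red cell genes that move together among libraries. The shares therefore do not say how often a pair of red cell genes separates the groups. The pair was singled out after its values were seen, Alas2 is X-linked and Slc4a1 is not, and no test was made.

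Counts per 1000 adult-type globin counts set the members against the bulk of red cell RNA. For Alas2 they were 29.3, 23.1, 24.9, 23.7 and 24.0 in WT 1 to WT 5 and 25.0, 24.3, 25.3, 27.6 and 24.1 in KI 1 to KI 5. The groups coincided, at 25.0 ± 2.47 in WT and 25.2 ± 1.39 in KI (SD, n = 5 each), and KI 5 no longer stood apart. For Slc4a1 they were 16.8, 11.5, 12.7, 13.1 and 11.7 in WT 1 to WT 5 and 17.5, 15.0, 16.4, 17.5 and 17.1 in KI 1 to KI 5, or 13.2 ± 2.17 in WT and 16.7 ± 1.04 in KI. The Slc4a1 groups overlapped only through WT 1, and the difference of the log2 ratios was 0.35 with a pooled SD of 0.17. Epb42 was at 0.691 ± 0.254 in WT and 1.13 ± 0.401 in KI, Klf1 at 1.30 ± 0.395 and 1.54 ± 0.798, Gata1 at 0.924 ± 0.283 and 0.753 ± 0.275, and Rhag at 0.291 ± 0.0531 and 0.207 ± 0.144, all with overlapping groups. With all 7 globins as the denominator, the differences became -0.24 for Alas2 and 0.09 for Slc4a1.

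**Figure D4:**
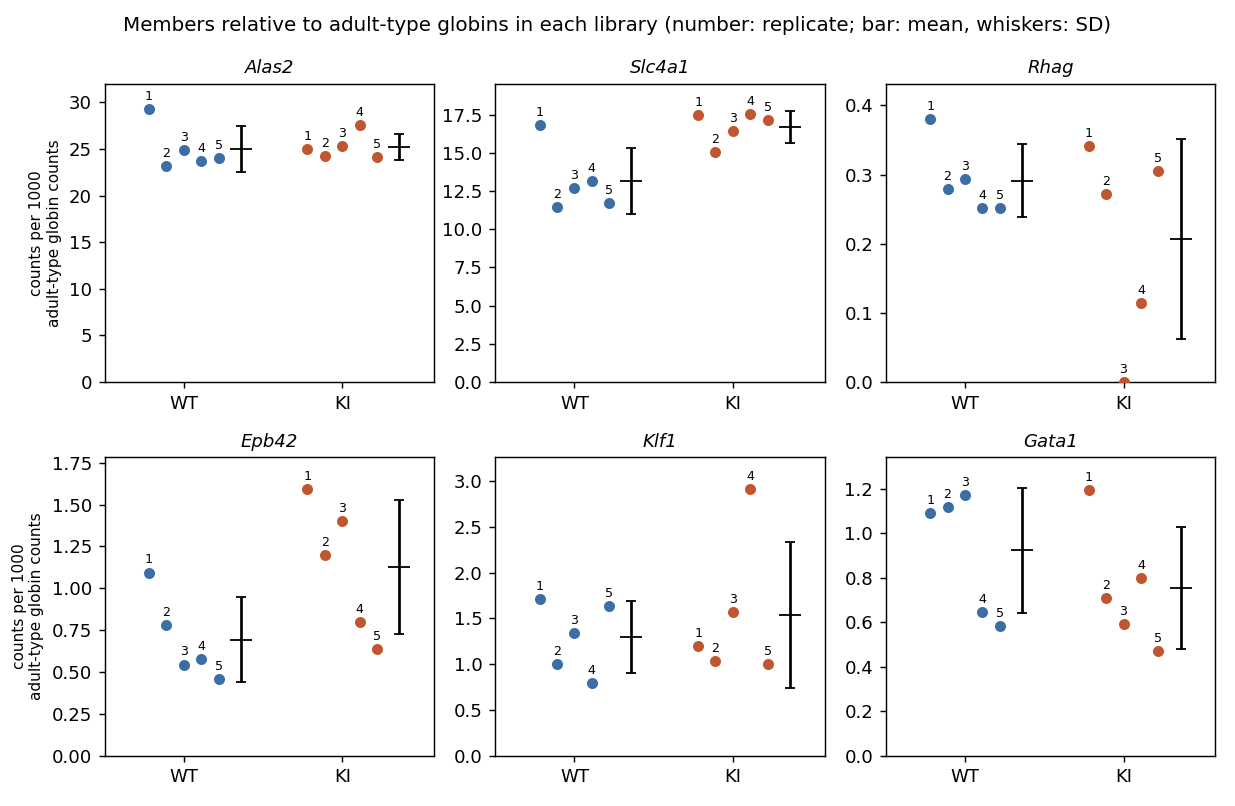
Counts of each member per 1000 counts of the adult-type globins (vertical axis, each panel with its own scale from 0) in each WT (blue) and KI (orange) library, numbered by replicate, with the mean and SD of each group in black. Alas2 lies between 23.1 and 29.3 in all libraries, and the Slc4a1 values of KI start at 15.0, above 4 of the 5 WT values.

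The denominator matters because the globins themselves did not move alike. Hbb-y and Hba-x, the embryonic globins of the epsilon and zeta type, were higher in KI (log2 fold change 0.81, adjusted p = 0.0407, and 0.79, adjusted p = 0.0458; edgeR). Hbb-bh1 was at 0.96 (edgeR, adjusted p = 0.0603) and was not called. Of the adult-type genes Hba-a2 was lower (-0.49; edgeR, adjusted p = 0.0416), and Hba-a1 (0.03), Hbb-bs (-0.29) and Hbb-bt (-0.18) were not called, although Hbb-bs and Hbb-bt were called lower when KI 5 was left out. Near-identical globin copies share reads, so the split between Hba-a1 and Hba-a2 is uncertain. The Hbb-y call was lost with Xist in the model (edgeR, adjusted p = 0.0978) and the Hba-x call with limma-voom. Of the 10 fits with 1 library left out, Hbb-y was called in 3 (lost without WT 1, WT 2, WT 3, WT 5, KI 2, KI 3 or KI 5), Hba-x in 4 (lost without WT 1, WT 2, WT 3, WT 5, KI 2 or KI 3) and Hba-a2 in 2 (kept without WT 4 or KI 5). Hbb-bh1 was called with DESeq2, with a replicate block and with no filter on low counts. With 1 library left out, Hbb-bh1 was called in 2 of the 10 fits (without WT 4 or KI 1). Embryonic globins made up 18.4% to 23.3% of globin counts in WT and 32.6% to 35.6% in KI. The levels of Alas2, Slc4a1, Epb42, Klf1 and Gata1 are thus given beside globins of which 2 were higher and 1 lower.

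The wider red cell programme was read from 48 other genes in 6 lists by role, of which 43 were tested. None was called lower and 1 was called higher, where 1.81% of all tested genes were called lower and 0.834% higher. The median log2 fold change of the 43 genes was 0.05, as for the members. Urod and Ppox of heme synthesis, after Alas2 in the pathway, were at 0.20 (edgeR, adjusted p = 0.0758) and 0.15 (adjusted p = 0.472). For iron uptake, Slc25a37, the mitochondrial iron importer mitoferrin, was at -0.18 (edgeR, adjusted p = 0.210) and Tfrc, the transferrin receptor, at 0.11 (adjusted p = 0.272). The 1 gene called higher was Epb41, encoding the skeleton protein 4.1R that many tissues express, at 188 ± 5.68 CPM in WT and 216 ± 6.11 CPM in KI (SD, n = 5 each; log2 fold change 0.20, edgeR, adjusted p = 0.0101), a call lost with Xist in the model (adjusted p = 0.169). The 7 genes of its membrane skeleton list had a median log2 fold change of -0.21, the opposite sign, with Tmod1, which caps actin filaments, the largest in size at -0.45 (edgeR, adjusted p = 0.107).

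The surface, transcription factor and maturation lists gave values of either sign and no call. On the red cell surface Kel, the Kell antigen, was at 0.45 (edgeR, adjusted p = 0.524), and Icam4 had no count in any library. Among the partner factors of Gata1 and Klf1, Tal1 was at 0.35 (edgeR, adjusted p = 0.217) and Nfe2 at -0.28 (adjusted p = 0.440). Of the maturation genes, Hemgn was at -0.78 (edgeR, adjusted p = 0.353) and Tspan33 at 0.22 (adjusted p = 0.448).

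The tested gene outside the lists whose deviations over the 10 libraries were most like the mean of the 5 tested members was Ltf, the neutrophil granule protein lactoferrin (r = 0.96, rho = 0.98), out of 13959 candidates. It was followed by Loxl4, Zfp438, Plaur, Dhrs4, Copg2, Sfrp5, Wdr3, Ngp and Adam9, with r from 0.93 to 0.86. Ngp encodes another neutrophil granule protein and in KI 5 stood 0.67 on the log2 scale above its group mean. Without KI 5 the r of these 10 genes lay between 0.76 and 0.94, from the same libraries that were used to choose them. The 10 are the highest of 13959 values of r over 10 libraries, where values this high can arise by chance, and no test was made. Ltf had 35 to 59 counts per library and Ngp 39 to 93. Sfrp5 was the only 1 of the 10 called, lower in KI (log2 fold change -0.73; edgeR, adjusted p = 0.00052), and that call was lost with Xist in the model (adjusted p = 0.167).

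**Figure D5:**
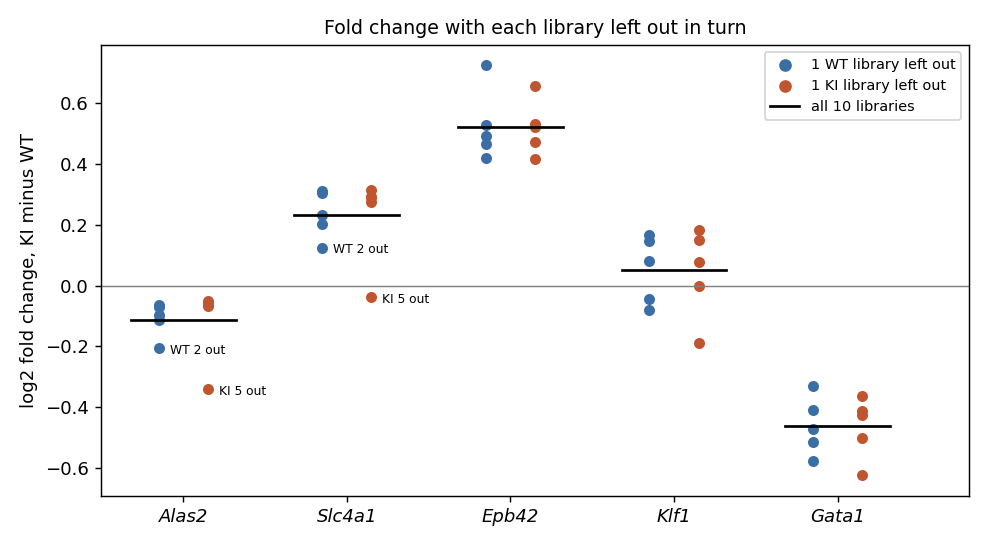
Log2 fold change of KI minus WT (vertical axis) of the 5 tested members with all libraries (black line) and with 1 WT (blue) or 1 KI (orange) library left out. Without KI 5, Alas2 moves to -0.34 and Slc4a1 to -0.04, while Epb42 stays above 0 and Gata1 below 0 in all fits shown.

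The plot of fold changes with a library left out shows how far each member rested on single libraries. Alas2 stayed below 0, from -0.34 without KI 5 to -0.05 without KI 2, and Epb42 stayed above 0, from 0.42 to 0.72. Gata1 stayed below 0, from -0.62 to -0.33. Slc4a1 and Klf1 took both signs. In 20 alternative settings, read for 5 members each, none of the 100 values had an adjusted p of 0.05 or less, and the lowest was 0.157 (edgeR, Alas2 without KI 5). The values say that differences of the members past their 95% intervals were not seen, and they do not show that blood in the 2 genotypes was the same.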

How the data were processed

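Pinna prominences of 5 WT and 5 KI libraries were profiled by paired-end RNA-seq. The authors used fastp for trimming, STAR for alignment to GRCm39 and featureCounts for counting, and deposited raw counts (17461544 to 18462073 per library). The annotation release, the use of strand and the handling of multi-mapping reads are not given in the sources used here. The sources describe the replicates as siblings from separate litters without naming them, and p-values measure the spread between these libraries.

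Identifiers were matched to GENCODE (49355 of 53465 genes; 0.111% of counts unmatched). Counts were filtered with filterByExpr, scaled by TMM and fitted with edgeR 4.0.16 (quasi-likelihood test, genotype alone, R 4.3.3), with Benjamini-Hochberg adjustment over 16426 genes. Calls needed an adjusted p no higher than 0.05 and a mean log2 CPM of 1 or more. CPM values are counts over the TMM-scaled library size. Ratios to globins used a prior count of 2 on the log2 scale. The edgeR fit and its adjusted p threshold were tried on simulated counts with known changes, and the other steps were not. Alternatives were DESeq2 1.42.0, limma 3.58.1 (voom), other scalings and filters, a replicate block, Xist as a covariate and leaving out each library. Libraries of 1 group differed beyond counting noise (chi-square per degree of freedom 2.55 to 18.2), so none was a copy. The members and gene lists were chosen with earlier results of these data known. Named genes were the members, the globins, the called genes or else the 2 largest changes of each other erythroid list, and the 10 genes most like the members among those at or above that mean log2 CPM. One gene that this rule names is not reported here. Figures were drawn with matplotlib.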

Additional observations from a re-analysis of the deposited data

Results flagged for a closer look

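Of 40 checks of a group of 5 libraries for 1 far value, 9 stood out, where chance gives about 1 in 20 for independent checks. The checks here were not independent, since Alas2, Slc4a1 and the summed globins moved together, and Alas2 and Slc4a1 made up most of the summed members. In 8 of the 9, KI 5 was the library far above the other KI libraries. These were Alas2 at 47.0 CPM (next 26.1), Slc4a1 at 33.4 CPM (next 17.5) and the summed members at 85.1 CPM (next 47.0). KI 5 was also far above the next KI library in Hba-a1 (1015 CPM, next 574), Hbb-bs (612.9 CPM, next 315), Hbb-bt (310.2 CPM, next 150.3), Hbb-y (749 CPM, next 444) and Hba-x (186 CPM, next 108). Rhag, Epb42, Klf1 and Gata1 gave no such value. The 9th was WT 1, with 29.3 Alas2 counts per 1000 adult-type globin counts (next 24.9).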

How the results depend on the processing

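The members had 0 calls under every alternative, and Epb42 (0.40 to 0.72) and Gata1 (-0.62 to -0.33) kept their signs in all of them, as log2 fold changes. With Xist as a covariate Alas2 turned to 0.45 and Slc4a1 went to 0.86 (edgeR, adjusted p = 0.242). In that fit KI 5 is the only KI library with WT-like Xist, and the cause was not tested. Leaving out 1 library gave -0.039 to 0.31 for Slc4a1 and -0.19 to 0.18 for Klf1, with the sign lost without KI 5 for Slc4a1. With all globins as the denominator the ratio differences went to -0.24 for Alas2 and 0.094 for Slc4a1.

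Globin calls were 0 to 3 lower and 0 to 3 higher when 1 library was left out, and 1 higher with limma-voom and 1 with Xist. Other erythroid genes had 1 lower (Tmod1) and 2 higher (Epb41 and Urod) with DESeq2, 0 higher with Xist, and 4 lower and 5 higher at an unadjusted p of 0.05. Over all genes DESeq2 called 510 lower and 321 higher, the Xist covariate left 1 and 2, the unadjusted p gave 1492 and 1166, and leaving out 1 library gave 120 to 476 lower and 34 to 179 higher.

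With a replicate block there were 487 lower and 200 higher over all genes and 1 lower among other erythroid genes (Tmod1), with no change of call in a member (Alas2 -0.14, Slc4a1 0.20, Epb42 0.53, Klf1 0.03, Gata1 -0.46). Same-numbered deviations correlated from -0.064 to 0.43 (mean 0.23, against -0.057 for other numbers), and 4 of 10 libraries correlated best with their own number, so the rule for paired libraries (over 0.1 in every pair) was not met. At 11 to 51 counts a library, Epb42, Klf1 and Gata1 could show only large changes, and Rhag (0 to 11 counts) fewer still.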

Other observations

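In KI 5, Hba-a2 stood at 12.7 CPM, the lowest of the 10 libraries, while Alas2, Slc4a1 and Hba-a1 were at their highest. Its counts were 1.25% of those of Hba-a1 in KI 5, against 3.63% to 3.88% in KI 1 to KI 4 and 3.58% to 4.9% in WT. These are near-identical copies whose reads can be assigned to either.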
